A study of Mus musculus with 5 samples.

Results

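The genes described here encode the translation initiation factors (eIF1 to eIF6), the elongation factors eEF1 and eEF2, and the kinases and binding proteins named after them. They were taken by symbol: every gene of the deposited count table whose name begins with Eif1 to Eif6, Eef1 or Eef2, leaving out Eif2ak2. The rule finds 62 of 24084 genes and uses no measured value. At least 1 count was present for 58 of the 62, and the same 58 passed the filter on low counts. Eef1a2, Eif4e1b, Eif3j1 and Eif3j2 had no count in any library.

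The samples were regulatory T cells (Tregs), the Foxp3-expressing T cells that restrain immune responses, sorted from mice aged 13 days. All libraries came from the Foxp3-DTR/GFP line, which the strain label shortens to Foxp3-DTR; in such lines Foxp3-expressing cells carry the diphtheria toxin receptor and a green fluorescent protein. One group holds 3 libraries from skin-draining lymph nodes and the other 2 libraries from skin, and the labels name no treatment in either. No adult and no other genotype enters the comparison. The sources used here do not give the number of animals behind a library, the sort gate or the digestion of the skin. The p-values therefore measure only how these libraries vary, and that variation may be technical. The cDNA was made with a SMARTer ultra-low-input kit, in which the little RNA of few cells is copied and then amplified.

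Levels below are CPM, the counts scaled to a common library size. The lymph node libraries held 12305644 to 14595018 gene counts and 12173 to 12540 genes with a count. The skin libraries were smaller, at 10787378 and 10468795 counts, and fewer genes had a count there, 9894 in skin library 1 and 9192 in skin library 2. Foxp3 read 89.6, 95.01 and 99.8 CPM in lymph node and 78.0 and 118 CPM in skin. Of 10 Treg marker genes tested, Foxp3 among them, 5 had negative and 5 positive fold changes. Ctla4 and Ikzf2 were called higher in skin and none was called lower. Cd3d, Cd3e, Cd3g and Cd4 had both skin values below all lymph node values. Of 14 myeloid marker genes in the table, 13 were tested, 12 had a positive fold change and 4 were called higher in skin. The myeloid markers summed to 402 to 699.7 CPM in lymph node and to 1997 and 2839 CPM in skin. Ctss, the 1 tested marker with a negative fold change, made up most of the lymph node sums. It had 674, 386 and 537 CPM there and 428 and 468 CPM in skin. Cd14 and Cd163 were at 0 in every lymph node library. Keratinocyte markers summed to 12.3 to 13.8 CPM in lymph node and to 134 and 233 CPM in skin. Krt14 was at 0 in lymph node and Krt1 at 0 everywhere. Of 10 keratinocyte markers, 5 were tested. Of these, 3 had positive and 2 negative fold changes (Krt10 and Perp), and Krt14 was called higher in skin. Krt10 had 2.32, 4.31 and 2.85 CPM in lymph node and 0 in both skin libraries. In skin libraries 1 and 2, Krt15 had 30.04 and 0 CPM, and Krtdap had 0 and 59.5 CPM. Fibroblast markers summed to at most 4.68 CPM in any library, with Pdgfra at 0 in all, and mast cell markers summed to 9.65 to 24.9 CPM in lymph node and to 12.8 and 0 CPM in skin. Of the 5 mast cell markers, Mcpt4, Cma1 and Tpsb2 were at 0 in all libraries, Cpa3 had 1.77 to 4.07 CPM in lymph node and 0 in skin, and Kit made up the rest. The share of these other cells' RNA in the differences below was not tested. In such bulk libraries, fewer cells of a type and less RNA per cell cannot be told apart.

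Translation starts when eIF2, loaded with GTP and the initiator transfer RNA, joins the small ribosomal subunit with eIF1, eIF1A, eIF3 and eIF5. The eIF4 factors bind the cap of the messenger RNA, unwind its leader and bring the ribosome to it. The exchange factor eIF2B then reloads eIF2 with GTP, and stress kinases that phosphorylate the alpha subunit of eIF2 block that step. During elongation eEF1A delivers transfer RNAs, the other eEF1 subunits recharge it, and eEF2 moves the ribosome along the message. Activated T cells are known to raise their protein synthesis, in part through the kinase mTORC1, which phosphorylates eIF4E-binding proteins and so frees eIF4E.

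Promoters were examined because Myc is known to bind the E-box CACGTG before genes of the translation machinery. RefSeq promoters of build GRCm38.p6 were available for 48 of the 62 genes. In the 250 bases before the start, the palindromic letters CACGTG, the same on both strands, occurred in 11 of these 48 genes (22.9%), beside 1318 of 16867 genes of the table (7.81%). The letters CCGGAAG, a core bound by ETS factors, occurred on either strand in 12 of the 48 (25%) beside 10.1% of all, and TATAAA in 5 (10.4%) beside 13.2% of all. The 16867 genes include genes without a count in any library, whereas 58 of the 62 members had one. They were not matched to the members for level. A gene with several listed starts was searched before each of them. The E-box genes included all of the usual subunits of eIF4F, namely the cap-binding Eif4e, the scaffold Eif4g1 and the helicase Eif4a1, together with Eif4h, Eif5a, Eif5a2, Eif1b, Eif3f, Eif3k, Eef2 and Eef2k. The lines below show 30 bases around the E-box nearest the start of 6 of them, chosen for their roles in cap binding and elongation, with the E-box in capitals, 5′ to 3′ on the gene's own strand.
Eif4e: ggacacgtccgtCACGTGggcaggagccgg
Eif4g1: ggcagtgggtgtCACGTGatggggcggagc
Eif4a1: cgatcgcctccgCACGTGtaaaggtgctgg
Eif4h: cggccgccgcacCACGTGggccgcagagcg
Eif5a: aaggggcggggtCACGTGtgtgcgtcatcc
Eef2: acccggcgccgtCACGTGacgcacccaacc
They lie at chr3:138527192-138527221 on the plus strand for Eif4e, chr16:20672661-20672690 (plus) for Eif4g1, chr11:69672595-69672624 (minus) for Eif4a1, chr5:134639488-134639517 (minus) for Eif4h, chr11:69921443-69921472 (minus) for Eif5a and chr10:81176576-81176605 (plus) for Eef2. The E-box began 64, 54, 189, 96, 74 and 43 bases before the start in the same order. The same 6 letters stood in every one, in otherwise unlike surroundings. A match of letters is a description and not a site of binding.

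Of the 58 translation factor genes tested, 4 fell in skin Tregs relative to lymph node Tregs, and 54 did not pass the test. The 4 were Eef1a1 and Eef1b2 of the elongation machinery, Eif2s1, the alpha subunit of eIF2, and Eif2b3, the gamma subunit of eIF2B. The 4 are 6.9% of the 58 tested, close to the background of 5.3% of 11437 tested genes called lower at an adjusted p under 0.05 in edgeR's quasi-likelihood test with Benjamini-Hochberg adjustment. No member was called higher in that test, where the background is 2.4%; at an unadjusted p under 0.05, 13 members (22.4%) were lower and 5 (8.62%) higher, beside 19.4% and 10.1% of all tested genes. Counts at that unadjusted p for the role groups below have the same background. Fold changes were negative for 43 members and positive for 15. Their median was a log2 difference of -0.50, beside -0.21 over all tested genes. The sign of that gap differed between fits: the members' median minus that of all genes was -0.29 here and -0.048 with DESeq2, but 0.22 with limma-voom, 0.23 without skin library 1 and 0.14 without skin library 2. The genes compared differed too, at 11437 here and with limma-voom, 14249 with DESeq2, and 12456 and 12523 without skin library 1 or 2. The 58 members stayed the same. With edgeR on all 14249 genes with a count the gap was -0.054. Both skin values lay below all lymph node values for 25 of 58 members (43.1%), beside 33.5% of all tested genes. Both lay above for 7 members (12.1%), beside 16.8% of all. The groups overlapped for the other 26.

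Which members passed depended on the libraries and the tool. Without any 1 of the lymph node libraries edgeR called no gene of the whole table, the 4 members had adjusted p-values of 0.113 to 0.115, and 8 to 15 members had an unadjusted p under 0.05. Without skin library 1, 20 members were lower (background 31.8%) and 1 was higher (background 16.9%). Without skin library 2, 18 were lower (background 24.8%) and 4 were higher (background 14.4%). In both of these fits the lone skin library is assumed to vary like the lymph node libraries. DESeq2 called 8 members lower (background 15%) and 3 higher (background 8.51%), the latter being Eif2ak3, Eif4ebp1 and Eif4h. In limma-voom (background 14.6%) and in edgeR with a stricter filter (background 9.94%), 6 members were lower. The 4 genes named above were among the members called lower in all of these fits except those without a lymph node library. With 3 libraries against 2, the smallest p an exact permutation test could reach is 0.1.

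Summed over the members, the lymph node libraries held 19248, 18739 and 20224 CPM and the skin libraries 13526 and 12612 CPM. The skin sums lay below every lymph node sum. As a share of all gene counts, these messages made up 1.921%, 1.943% and 2.04% in lymph node and 1.34% and 1.206% in skin. Much of that gap lay in the eEF1 and eIF3 genes. Eef1a1 made up most of the eEF1 sums. Of the 50-base stretches in its exons, 53.6% occur in other genes too, so the summed gap is uncertain to that extent. Among the eIF3 genes the gap was spread widely, and 11 of 12 tested had negative fold changes. The eEF1 genes summed to 4005 to 5442 CPM in lymph node and 2109 and 2117 CPM in skin, and the eIF3 genes to 4743 to 5965 and to 3243 and 3869 CPM.

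**Figure D1:**
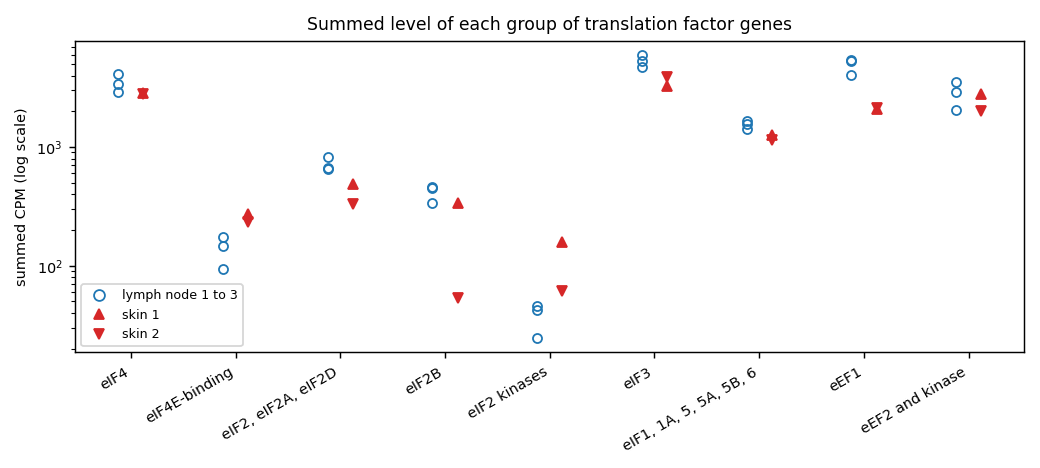
Summed CPM of each role group in the 3 lymph node and 2 skin libraries, on a log axis, 1 point per library. The eEF1 genes lay at 4005 to 5442 CPM in lymph node and at 2109 and 2117 CPM in skin, the eIF4 genes at 2880.0 to 4152 CPM and at 2868 and 2799 CPM, and the eIF2B genes in skin library 2 at 53.3 CPM.

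**Figure D2:**
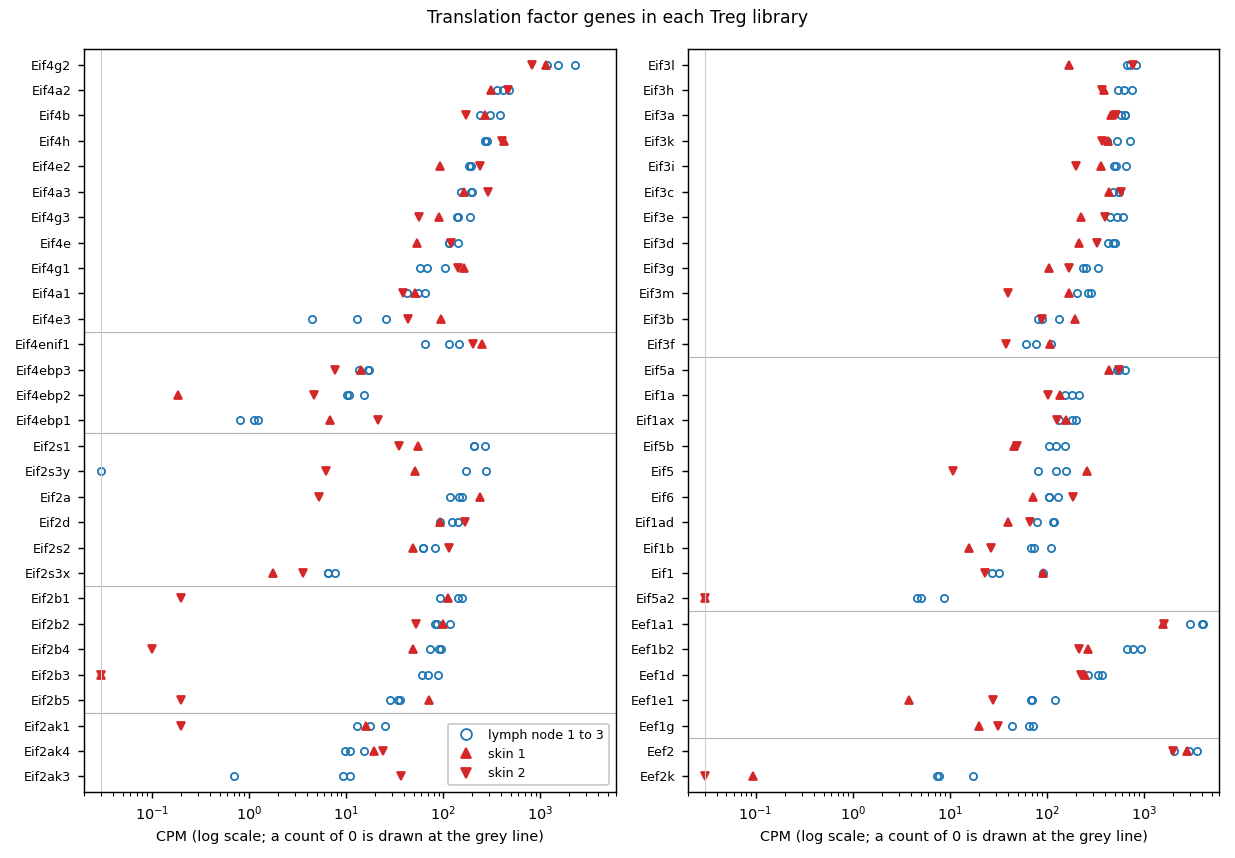
Level of each translation factor gene in each library, as CPM on a log scale, with horizontal lines between role groups and counts of 0 drawn at the grey line. The 58 genes with a count are drawn. Eif2b3 and Eif5a2 had no count in either skin library.

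The elongation factors included the most abundant messages of the family, and all 5 detected eEF1 genes were lower in both skin libraries while the eEF2 gene was not. Eef1a1, which encodes the carrier of aminoacyl transfer RNAs, lies at chr9:78478449-78489151 (GRCm38). Its level was 3940.3, 2954 and 4029.6 CPM in lymph node and 1568 and 1616 CPM in skin. Every skin value was well below every lymph node value, and the 2 skin libraries were close to each other. The log2 difference was -1.19 (SE 0.20, edgeR adjusted p = 0.0452). Of the 50-base words in its exons, 53.6% occur in other genes too, so its level is uncertain. Eef1b2, which recharges eEF1A with GTP, lies at chr1:63176825-63180486. It had 942, 676 and 768 CPM in lymph node and 267 and 217 CPM in skin. The groups were far apart, with a log2 difference of -1.72 (SE 0.24, edgeR adjusted p = 0.041).

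The other eEF1 genes also lay lower in both skin libraries, without passing the test. Eef1d, a further exchange subunit, had 366, 263 and 334 CPM in lymph node and 249 and 225 CPM in skin (log2 difference -0.44, edgeR adjusted p = 0.306). Eef1g, the structural subunit, had 71.6, 43.3 and 66.2 CPM in lymph node and 20.1 and 31.8 CPM in skin, with 64.3% of its words shared with other genes. Eef1e1, also a part of the complex of transfer RNA synthetases, had 121, 69.0 and 69.6 CPM against 3.84 and 27.6 CPM. So 5 of 5 eEF1 genes tested had both skin values below the lymph node values, beside 33.5% of all tested genes, and 2 of the 5 were called lower, beside 5.3% of all.

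The translocase Eef2 overlapped between the tissues. This factor carries the diphthamide residue that diphtheria toxin modifies. Its level was 2044, 2912 and 3511 CPM in lymph node and 2797 and 1995 CPM in skin. The log2 difference was -0.24 (SE 0.29, edgeR adjusted p = 0.662). Per kilobase of exon, Eef1a1 averaged 1461 CPM in lymph node but 639 CPM in skin, and Eef2 averaged 849 and 721 CPM. In these group means Eef1a1 came first in lymph node and Eef2 first in skin. The order in skin rested on skin library 1, since Eef1a1 stayed first per kilobase in skin library 2. The share of ambiguous Eef1a1 reads is a further limit. Eef2k, the kinase that inhibits eEF2, was scarce at 7.73, 7.45 and 17.3 CPM in lymph node. In skin it had 0.0936 CPM, a single count, and 0. The lymph node level was 227.8 times the skin level, with a 95% counting interval of 40.68 to 9016, and the edgeR adjusted p was 0.0536. It was called without either skin library, at 0.00257 without the first and 0.00707 without the second. Genes that build the diphthamide of eEF2 are given below with the related lists.

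The genes of eIF2 and of alternative transfer RNA carriers held 1 call, lower in skin, among 6 tested. Of all tested genes, 5.3% were called lower. Eif2s1, whose protein is the target of the stress kinases, lies at chr12:78861819-78887010. Its level was 270.5, 211 and 208 CPM in lymph node and 55.5 and 35.2 CPM in skin. No skin value came near the lymph node range, and the log2 difference was -2.34 (SE 0.36, edgeR adjusted p = 0.0429). The beta subunit Eif2s2 had 82.8, 61.5 and 62.5 CPM in lymph node and 49.4 and 114 CPM in skin, so its groups overlapped. The gamma subunit comes from an X-linked and a Y-linked gene. Eif2s3x had 6.602, 6.51 and 7.75 CPM against 1.78 and 3.59 CPM, with 35.45% of its words shared with other genes. Eif2s3y had 0, 277 and 171 CPM in lymph node and 51.0 and 6.29 CPM in skin. Other sex-linked RNA also differed between libraries, and the part of sex in this spread was not tested. Lymph node library 1 had 4221 counts of Xist and 1 count of the Y-linked Ddx3y. Lymph node library 2 had no Xist and 3877 counts of Ddx3y, and the remaining libraries had both. Eif2a and Eif2d encode proteins that can carry initiator or other transfer RNAs to the ribosome without eIF2. Eif2d had 142, 125 and 93.6 CPM against 94.1 and 169 CPM. Eif2a had 156, 145 and 117 CPM in lymph node, with 240.2 CPM in the first skin library but 5.29 CPM in the second (log2 difference -0.18, edgeR adjusted p = 0.95, and 0.000215 without skin library 1).

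The genes of eIF2B were the least even of the family. Eif2b3, at chr4:117019402-117087306, had 89.3, 60.1 and 70.7 CPM in lymph node and not a single count in either skin library. Against a floor of 3 counts over the skin group, it was at least 509.3-fold lower in skin (edgeR adjusted p = 0.0305). In skin library 1 the other subunits were present. Eif2b1 had 157, 93.0 and 142 CPM in lymph node, and 112 CPM in the first skin library, but only 2 counts (0.200 CPM) in skin library 2. Eif2b4 had 95.8, 73.8 and 90.9 CPM in lymph node, 49.5 CPM in skin library 1 and 1 count (0.0999 CPM) in skin library 2. Eif2b5, the catalytic subunit, had 36.0, 28.5 and 34.5 CPM in lymph node, 72.3 CPM in skin library 1 and 2 counts in skin library 2. Eif2b2 was detected throughout, with 86.3, 82.6 and 117 CPM against 101 and 52.8 CPM. In skin library 2 the gamma subunit and 3 others were thus at or near 0, and in skin library 1 only the gamma subunit was. Eif2b1, Eif2b4 and Eif2b5 had edgeR adjusted p-values of 0.722, 0.586 and 0.971. Without skin library 1 these became 0.000151, 0.000126 and 0.00035, all lower in skin. Without skin library 2, Eif2b5 was called higher (edgeR adjusted p = 0.0478).

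Near-absent messages were common in the skin libraries as a whole. Of 6660 genes with a lymph node mean of at least 20 CPM, 8.8% fell short of 1 CPM in skin library 1, 16.1% did so in skin library 2, and 4.23% in both. Of the 48 translation factor genes at that level, 1 (2.08%) was under 1 CPM in skin library 1 and 4 (8.33%) in skin library 2, and these were Eif2b3 in the first and Eif2b1, Eif2b3, Eif2b4 and Eif2b5 in the second. The members' shares were below the background in both. Between the skin libraries the largest ratios, with 2 CPM added to each level, were those of Eif2b1, Eif2b5, Eif2a, Eif2b4 and Eif5. For Eif5, the GTPase-activating factor of eIF2, the levels were 157, 123 and 81.0 CPM in lymph node, against 262 CPM in the first skin library and 10.9 CPM in the second. It was called lower without skin library 1 and higher without skin library 2, at edgeR adjusted p-values of 0.00122 and 0.0484. The median member stood at a log2 ratio to its lymph node mean of -0.42 in skin library 1 and -0.80 in skin library 2.

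**Figure D3:**
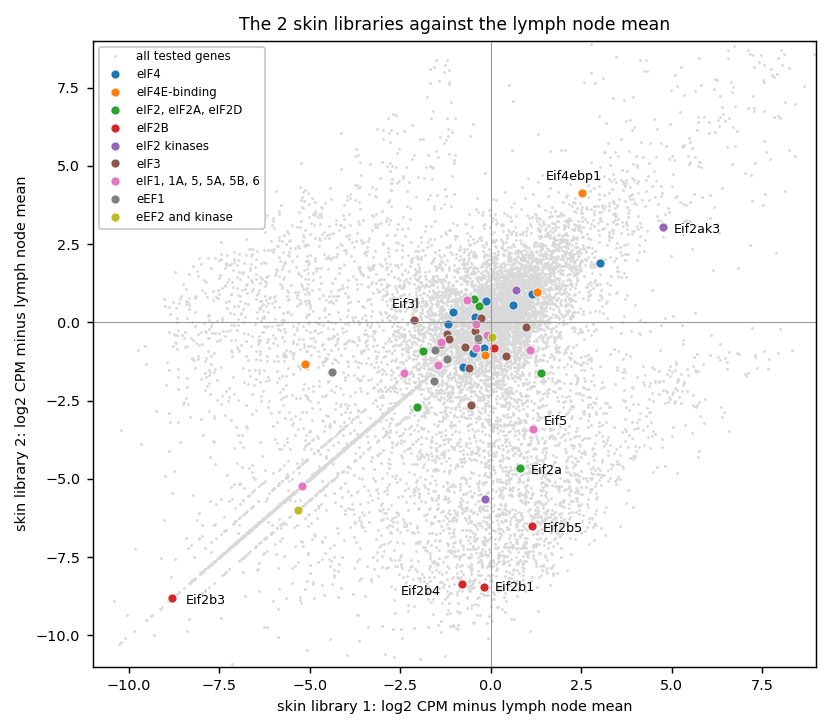
The translation factor genes in skin library 1 (horizontal axis) and skin library 2 (vertical axis), each as log2 CPM minus the lymph node mean, 1 coloured point per gene by role and 1 grey point per tested gene. Eif2b1, Eif2b4, Eif2b5, Eif2a and Eif5 lie between -0.80 and 1.17 in skin library 1 and between -8.47 and -3.40 in skin library 2, where they read 0.0999 to 10.9 CPM.

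The eIF2 kinases were low in lymph node, and none was called in edgeR, where 1 had an unadjusted p under 0.05. Eif2ak3, which encodes the kinase PERK that responds to unfolded proteins in the endoplasmic reticulum, had 10.9, 0.705 and 9.38 CPM in lymph node and 123 and 36.9 CPM in skin. Both skin values were above all lymph node values, but the latter were also spread widely (log2 difference 3.51, SE 1.26, edgeR adjusted p = 0.137). Without skin library 2 its adjusted p was 0.0125. Eif2ak4, the kinase GCN2 that senses uncharged transfer RNA, had 9.83, 10.9 and 15.3 CPM against 19.3 and 24.1 CPM (log2 difference 0.85, edgeR adjusted p = 0.531). Eif2ak1, the heme-regulated kinase, had 25.0, 12.9 and 17.7 CPM against 16.1 and 0.200 CPM.

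The eIF4 factors, which read the cap and unwind the leader, differed in sign from gene to gene, and none of the 11 tested was called in edgeR. At an unadjusted p under 0.05, 1 was lower (Eif4g3) and 2 were higher (Eif4g1 and Eif4h), and DESeq2 called Eif4h. Eif4e, the cap-binding protein, had 143, 115 and 116 CPM in lymph node and 54.1 and 119.8 CPM in skin. Its skin libraries differed from each other more than the lymph node libraries did (log2 difference -0.52, edgeR adjusted p = 0.519, and 0.0258 without skin library 2). Eif4e2, a relative that represses messages at the cap, had 191, 193 and 185 CPM against 92.5 and 239 CPM, also low in skin library 1 only. Eif4g1, the scaffold between cap and ribosome, had 58.2, 106 and 67.9 CPM in lymph node and 165 and 142 CPM in skin. Its skin values were the higher ones in every pairing, with a log2 difference of 0.99 (SE 0.39, edgeR adjusted p = 0.165). Eif4g2, a relative of Eif4g1 that does not bind eIF4E, was the most abundant of the eIF4 group. It had 1189.6, 2278 and 1549 CPM in lymph node and 1149 and 818 CPM in skin (log2 difference -0.77, SE 0.34, edgeR adjusted p = 0.209, and 0.0464 without skin library 1). Eif4g3, the other cap-dependent scaffold, had 141, 188 and 139.8 CPM against 91.2 and 57.2 CPM (log2 difference -1.08, edgeR adjusted p = 0.125). Eif4g1 thus lay above, and its relatives Eif4g2 and Eif4g3 below, in both skin libraries, none of them past the threshold.

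Among the helicases and their helpers, Eif4a2 had 364, 412 and 479 CPM in lymph node and 309.8 and 469.7 CPM in skin, a log2 difference of -0.10 (edgeR adjusted p = 0.857). Eif4a1, its close relative, had 55.3, 42.4 and 65.3 CPM against 52.0 and 38.9 CPM. Of the words in its exons, 65.28% occur elsewhere, so its level is uncertain. Eif4h, a helicase cofactor, had 271, 270.2 and 286 CPM in lymph node and 423 and 406 CPM in skin. The spread within each tissue was small beside the gap, and the log2 difference was 0.59 (SE 0.19, edgeR adjusted p = 0.105). Eif4b, the other cofactor, had 242, 383 and 306 CPM against 269.8 and 172 CPM. Eif4a3, a helicase of the exon junction complex, had 200.04, 153 and 195 CPM against 166 and 293 CPM, and both it and Eif4b overlapped between the tissues. Eif4e3, an unusual cap-binding relative, had 25.8, 13.0 and 4.48 CPM in lymph node and 95.2 and 43.7 CPM in skin (log2 difference 2.26, edgeR adjusted p = 0.177).

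The 4 genes for proteins that bind eIF4E differed in sign, and none was called in edgeR; 2 were higher at an unadjusted p under 0.05. Eif4ebp1, a repressor that mTORC1 inactivates, had 1.12, 1.25 and 0.815 CPM in lymph node and 6.83 and 21.2 CPM in skin. All skin values were above all lymph node values at a low level (log2 difference 3.71, SE 1.004, edgeR adjusted p = 0.0727; DESeq2 adjusted p = 0.000124). Without skin library 1 the edgeR adjusted p was 0.00211. Eif4ebp2, the second repressor, had 10.3, 15.3 and 10.9 CPM in lymph node and 0.187 and 4.69 CPM in skin (log2 difference -2.31, edgeR adjusted p = 0.376, and 0.00441 without skin library 2). Eif4ebp3 had 16.8, 13.7 and 17.4 CPM against 14.2 and 7.69 CPM, with 65.47% of its words shared with other genes. Eif4enif1 encodes the transporter that takes eIF4E to the nucleus and to messenger RNA granules. It had 65.3, 145 and 116 CPM in lymph node and 249.7 and 202 CPM in skin, a log2 difference of 1.05 (SE 0.40, edgeR adjusted p = 0.157).

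The 12 tested genes of eIF3, the large scaffold that holds the small subunit open for the message, had the narrowest range of fold changes among the role groups. Log2 differences ran from -1.27 for Eif3m to 0.48 for Eif3b, 11 were negative, and the median was -0.70. Both skin values lay below the lymph node values in 7 of 12, beside 33.5% of all tested genes. None had both above, beside 16.8% of all. With all libraries, no eIF3 gene was called in edgeR, DESeq2 or limma-voom, and 4 were lower at an unadjusted p under 0.05 in edgeR. Calls among them arose only in the fits with a lone skin library, and those fits differed in the eIF3 genes called. Eif3l had 678, 716 and 825 CPM in lymph node and 168 and 772 CPM in skin, so skin library 1 alone was low (log2 difference -0.65, edgeR adjusted p = 0.56, and 0.00124 without skin library 2). Eif3a, the largest subunit, had 638, 637 and 587 CPM against 456 and 516 CPM (log2 difference -0.35, edgeR adjusted p = 0.265). Eif3h, the most abundant of the group per kilobase of exon, had 754, 544 and 631 CPM against 388 and 368 CPM (log2 difference -0.77, edgeR adjusted p = 0.0816). Eif3c, at 552, 480.2 and 559 CPM against 436 and 586 CPM, overlapped between the tissues.

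Among the further eIF3 subunits, Eif3d, which can itself bind the cap, had 506, 428 and 479 CPM in lymph node and 212 and 326 CPM in skin (log2 difference -0.81, edgeR adjusted p = 0.111). Eif3g had 337, 238 and 254 CPM against 105 and 168 CPM (log2 difference -1.02, edgeR adjusted p = 0.112). Eif3i had 651, 487 and 515 CPM against 360.0 and 200.02 CPM (log2 difference -0.98, edgeR adjusted p = 0.117). In these 3 genes every skin value was below every lymph node value. The same held for Eif3e, with 604, 443 and 524 CPM against 224 and 397 CPM, and for Eif3m, with 288, 207 and 263 CPM against 169.7 and 40.2 CPM. Of their 50-base words, 22.03% and 37.1% occur in other genes. Eif3k had 712, 414 and 531 CPM against 423 and 366 CPM, and Eif3f had 111, 61.1 and 77.2 CPM against 108 and 38.3 CPM. Eif3b, part of the core beside Eif3a, had 134, 89.4 and 82.0 CPM against 194 and 89.9 CPM. These last genes overlapped, and Eif3b alone of the 12 had a positive log2 difference, 0.48 (edgeR adjusted p = 0.567). Eif3j1 and Eif3j2, which had no count, share 54.83% and 91.85% of their words with other genes, so an absence of reads cannot be read as absence of the message.

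Factors of start site selection and subunit joining had skin values below or overlapping those of lymph node. None of 10 was called in edgeR with all libraries. At an unadjusted p under 0.05, 3 were lower (Eif1b, Eif5a2 and Eif5b), and DESeq2 called the same 3. Eif5b, the GTPase that joins the large subunit, had 154, 123 and 106 CPM in lymph node and 46.0 and 49.4 CPM in skin (log2 difference -1.42, SE 0.37, edgeR adjusted p = 0.0684). Eif1b had 111, 68.4 and 73.6 CPM against 15.6 and 26.6 CPM (log2 difference -1.998, edgeR adjusted p = 0.0802). Eif5a, which carries hypusine and helps ribosomes through difficult sequences, had 531, 634 and 559.7 CPM against 434 and 552 CPM. Its groups overlapped, with a log2 difference of -0.22 (edgeR adjusted p = 0.556). Its scarce relative Eif5a2 had 4.57, 5.02 and 8.70 CPM in lymph node and no count in skin. Against a floor of 3 counts over the skin group it was at least 42.51-fold lower (edgeR adjusted p = 0.0506). Eif1ax, which takes part in scanning for the start codon, had 199, 132 and 184 CPM against 157 and 128 CPM (log2 difference -0.27, edgeR adjusted p = 0.637). Its relative Eif1a had 212, 155 and 181 CPM against 135 and 103 CPM, and Eif1ad, which resembles it in sequence, had 118, 117 and 79.6 CPM against 39.9 and 66.9 CPM. Both had every skin value below every lymph node value and did not pass the test (edgeR adjusted p = 0.246 and 0.227). Eif1, which guards the choice of start codon, had 32.5, 91.6 and 27.2 CPM against 92.2 and 23.3 CPM, a spread within each tissue as wide as that between them. Eif6, which keeps free large subunits from joining, had 130.4, 106 and 106 CPM against 71.7 and 187 CPM.

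**Figure D4:**
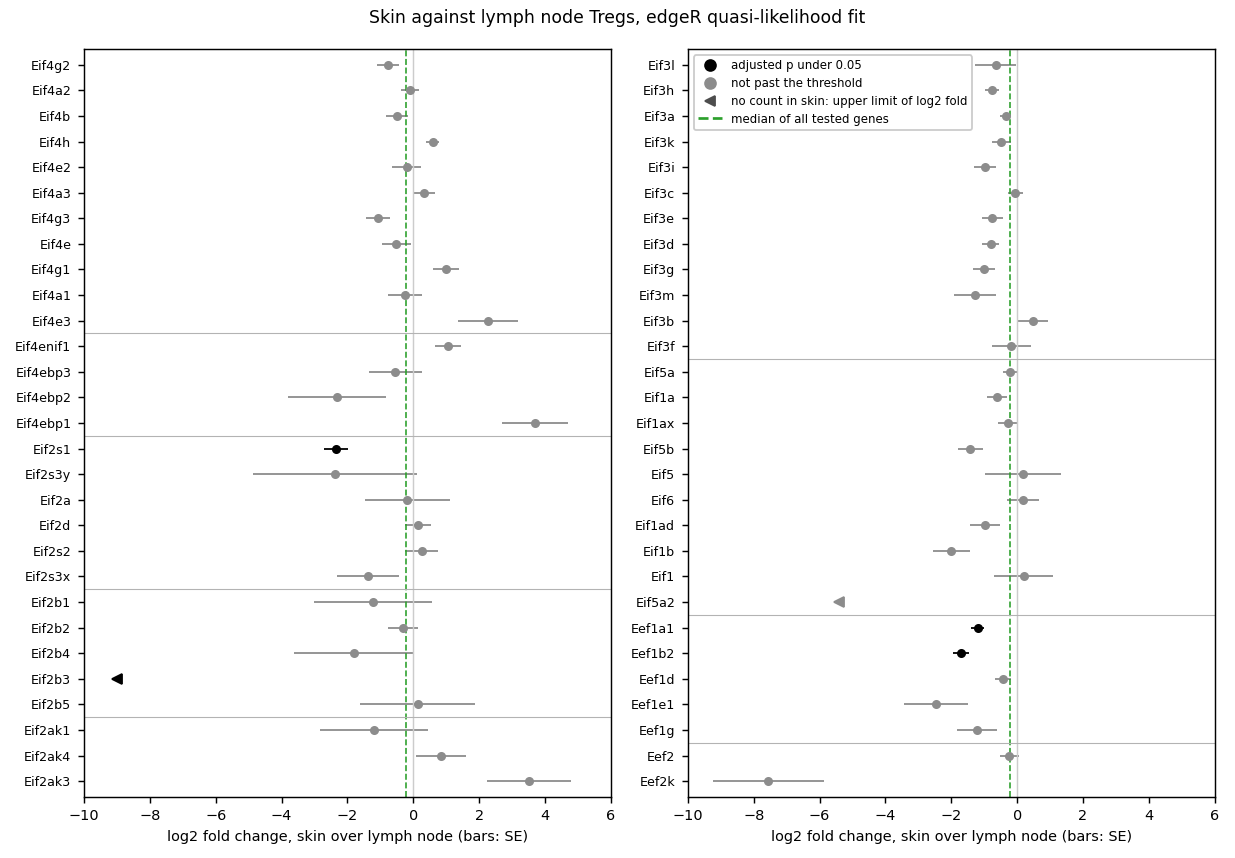
Log2 fold change, skin minus lymph node, of the tested translation factor genes with its standard error, grouped by role; genes without a count in skin are drawn as bounds. The called genes Eef1a1 (-1.19), Eef1b2 (-1.72), Eif2s1 (-2.34) and Eif2b3 (at least 509.3-fold lower) are marked, and 43 of 58 genes lie below 0.

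Of the 11 genes with an E-box, 9 had negative fold changes and 2 positive ones (Eif4g1 and Eif4h), none was called in the edgeR fit, and the median log2 difference was -0.26. DESeq2 called 4 of them, with Eif4h higher and Eef2k, Eif1b and Eif5a2 lower. The other 35 tested genes with a promoter entry had 25 negative and 10 positive values, 3 called lower in edgeR and a median of -0.49, and DESeq2 called 5 of them, 4 lower and 1 higher. The difference between these groups was not tested. Myc itself had 191, 278 and 293 CPM in lymph node, 97.1 CPM in skin library 1 and 1 count (0.0999 CPM) in skin library 2 (edgeR adjusted p = 0.475). It was called lower without skin library 1 (0.000107) and without skin library 2 (edgeR adjusted p = 0.0193).

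Genes around the translation factors were described from 7 lists, in which 8 of 92 tested genes (8.7%) were called, beside 7.7% of all tested genes in either direction. All 8 calls were lost without any 1 lymph node library, as for the members. Of the 13 tested enzymes that modify the factors, 2 were called lower, 11 had negative values and the median log2 difference was -1.55, beside -0.21 over all genes. Both called genes make the diphthamide of eEF2. Dph7 had 87.9, 72.4 and 70.4 CPM in lymph node and was not counted in skin, which makes it at least 531-fold lower (edgeR adjusted p = 0.0282). Dph2 had 31.3, 64.0 and 73.2 CPM in lymph node and 0 and 0.200 CPM in skin. The ratio was 580.6, with a 95% counting interval of 160.5 to 4797 (edgeR adjusted p = 0.046).

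The 22 mTORC1 pathway genes held 1 higher and 1 lower call and a median of 0.27. Rptor, the raptor subunit that presents substrates to the kinase, had 38.0, 40.9 and 37.7 CPM in lymph node and 177 and 184 CPM in skin. Both tissues were tight and far apart (log2 difference 2.22, SE 0.32, edgeR adjusted p = 0.0411). Rragd, a GTPase of amino acid sensing, had 8.57, 11.2 and 7.20 CPM in lymph node and was without a count in skin, which puts it at least 61.37-fold lower (edgeR adjusted p = 0.0484). The kinase gene Mtor had an edgeR adjusted p of 0.911. Pdcd4, an inhibitor of eIF4A, had 182, 205 and 179 CPM against 79.0 and 78.6 CPM (log2 difference -1.26, edgeR adjusted p = 0.0524, DESeq2 adjusted p = 0.000112). It was called without either skin library, at 0.0122 and 0.0155.

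Partners of the cap and the poly(A) tail held 1 call among 12. Cyfip1, a binder of eIF4E and of the actin regulator WAVE, had 57.4, 74.9 and 40.8 CPM in lymph node and 319 and 221 CPM in skin (log2 difference 2.22, edgeR adjusted p = 0.0452). The integrated stress response, which runs from eIF2 phosphorylation to the factor ATF4, held 1 call among the 10 of 12 genes tested. Ppp1r15a, the subunit that directs a phosphatase to eIF2 alpha, had 10.4, 40.7 and 37.2 CPM in lymph node and 612 and 264 CPM in skin. Every skin value was far above every lymph node value (log2 difference 3.90, SE 0.71, edgeR adjusted p = 0.0465). Atf4 itself had 147, 124 and 138 CPM against 170.3 and 104 CPM (log2 difference 0.01, edgeR adjusted p = 0.989). Its groups overlapped, and the sign of its difference was negative with upper quartile scaling and with library totals.

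Termination and recycling held 1 call among 9 tested. Hbs1l, which rescues stalled ribosomes, had 85.3, 115 and 98.0 CPM in lymph node and 225 and 291 CPM in skin (log2 difference 1.38, edgeR adjusted p = 0.0496). Myc and genes of ribosome biogenesis held 1 call among 15 tested, 12 negative values and a median of -1.04. Dkc1, the pseudouridine synthase dyskerin, had 373, 366 and 362 CPM in lymph node and 76.9 and 117 CPM in skin (log2 difference -1.92, edgeR adjusted p = 0.0413). None of the 11 mitochondrial translation factors was called in edgeR, none had an unadjusted p under 0.05, DESeq2 called 1, and their median was -0.07.

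**Figure D5:**
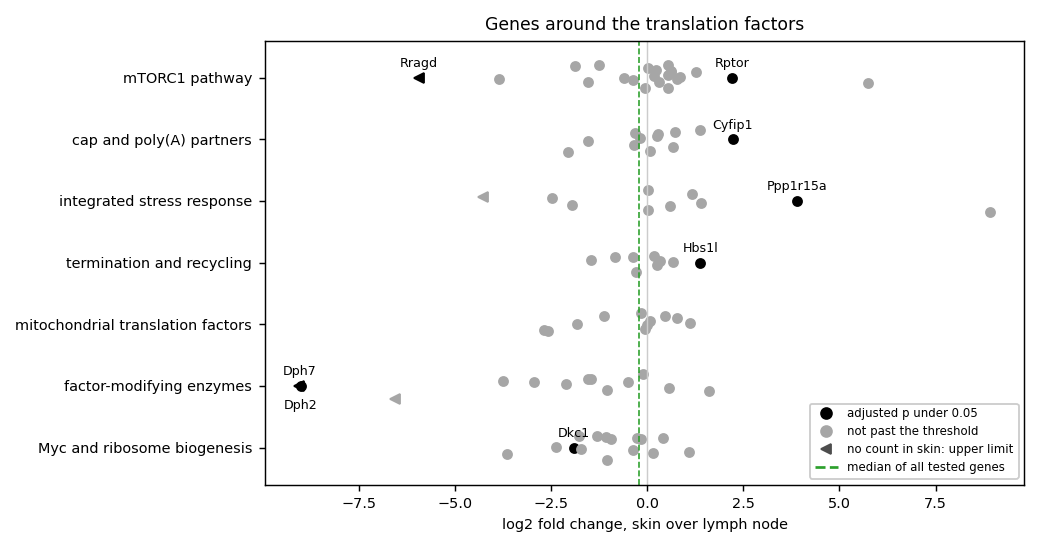
Log2 fold change, skin minus lymph node, of each tested gene in the 7 related lists, with called genes in black and named, genes without a count in skin drawn at their bound, and the median of all tested genes as a dashed line. Factor-modifying enzymes and ribosome biogenesis genes have the lowest list medians, at -1.55 and -1.04, and the other list medians lie between -0.07 and 0.31.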

How the data were processed

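Messenger RNA of sorted Tregs was measured by RNA sequencing in 3 lymph node and 2 skin libraries. The submitters' processing notes name HTSeq 0.6.1, TopHat2 2.0.12, Bowtie2 2.1.0.0, CASAVA 1.8.2, SAMtools 0.1.19.0 and build mm10, and for options and strand the setting is not given in the sources used here. Whole-number counts by gene symbol, not normalized, were deposited by the authors, under a header that stands 1 cell to the left. The table has 24089 lines, and 5 summary lines were left out of library sizes; the line of alignments to more than 1 place held 64.5% to 72% of each column's sum.

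Counts were tested with edgeR 4.0.16 in R 4.3.3: default expression filter (minimum count 10), TMM scaling, quasi-likelihood F test of skin against lymph node, and a Benjamini-Hochberg threshold of 0.05 across the 11437 genes tested. The fit was tested on simulated data. Alternatives used DESeq2 1.42.0, limma-voom (limma 3.58.1), other scalings and filters, a replicate block, and each library left out. CPM uses the scaled library size. Intervals and floors (3 counts) hold for counting error alone, because reads of amplified cDNA without molecular identifiers are not independent. Gene positions and exon lengths are from GENCODE M21 (GRCm38), and shared words are the 50-base words of a gene's exons found in another gene. Promoters are RefSeq's.

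Genes named in full were the called ones, the 2 most abundant of each role, 12 of central function, those without a count in 1 tissue and at least 20 CPM in the other, and the 5 that differed most between the skin libraries. Of the related lists, called genes and Mtor, Rptor, Pdcd4, Atf4 and Myc were named. The remaining genes given with values were chosen after their values were seen. The members and lists were chosen with earlier results of these data known.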

Additional observations from a re-analysis of the deposited data

How the results depend on the processing

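Scaling and filtering left the 4 lower members in place: RLE, upper quartile and library-total scaling and testing every gene with a count called the same 4 genes. DESeq2 gave 8 lower and 3 higher. Leaving out 1 library gave 0 to 20 lower and 0 to 4 higher members, and moved the members' median log2 difference between -0.8171 and -0.4453. Among genes of the related lists, 8 were called, and 24 with DESeq2, 14 with limma-voom, 3 when every gene with a count was tested, and 0 to 48 with 1 library left out. The list counts rose and fell with the calls in the whole table. DESeq2 called 15% of all genes lower and 8.51% higher. Limma-voom called 14.6% lower and 566 of 11437 genes higher. Testing every gene with a count called 179 of 14249 genes lower and 136 higher. Backgrounds for the fits without a skin library are given above, and no gene was called without a lymph node library. Whether the lists differed from these backgrounds was not tested. The replicate numbers were not treated as pairs. Ddx3y had 1 count in lymph node library 1 and 1553 in skin library 1. Xist had 0 counts in lymph node library 2 and 4123 in skin library 2. Deviations from the group means correlated at -0.0252 and -0.0236 for equal numbers. With 2 skin libraries these deviations mirror each other, so the correlations cannot decide on pairing. With the replicate number as a block, 0 members were lower (6 had an unadjusted p under 0.05) and 0 list genes were called, beside 21 genes in the whole table. The cause of these changes was not tested. Signs turned for genes that were not called: Eif2b5 was at -2.999 with limma-voom and -2.843 with the block, Eif5 at -1.025 and -1.373, Mtor at -0.204 with the block, and Atf4 at -0.02502 with limma-voom, -0.1324 with upper quartile scaling, -0.03788 with library totals and -0.01923 with the block. With 1 library left out, ranges were -7.305 to 1.125 for Eif2b5, -3.474 to 1.114 for Eif5, -0.8893 to 0.7686 for Mtor, -0.3925 to 0.3135 for Atf4, -0.4393 to 0.162 for Eif4a2, -4.72 to 0.7814 for Eif2a, -0.8581 to 0.07315 for Eif2b2 and -2.144 to 0.05782 for Eif3l. The median of all tested genes was -0.2131, and -0.3652 with upper quartile scaling, -0.8484 with limma-voom and -0.8553 with the block. The members' median exceeded that of all genes by 0.2208 with limma-voom, 0.2142 with the block and 0.1399 to 0.2324 without a skin library, and was below it otherwise. With 2 skin libraries and a common dispersion of 0.843, genes at a few CPM are the least certain, and a skin group without a count allows up to 0.145 CPM.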
